A study of Homo sapiens with 6 samples.

Results

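The genes described here encode the core RNA interference machinery, and comprise the Argonaute genes AGO1, AGO2, AGO3 and AGO4 with DICER1, DROSHA, DGCR8, XPO5, TARBP2 and TNRC6A. These 10 genes were chosen by function, and a probe set was counted where the platform annotation gave it to a member and to no other gene. This rule found 31 of 54613 probe sets, which cover 9 of the 10 genes. DGCR8 had none of its own, because its 4 probe sets also name MIR1306, and AGO2 had 1, because 3 more also name CASC7. These 7 jointly annotated probe sets are given apart and enter no count.

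RNA was taken from ONS-76, an established human medulloblastoma cell line, and hybridized to 6 Affymetrix U133 Plus 2.0 arrays. In 3 samples (siKDM1A, replicates a, b and c) the cells had been transfected with an siRNA directed against the histone demethylase KDM1A, and in the other 3 (control, replicates a, b and c) they had received transfection reagent alone and no siRNA. Harvest was at 48 h by the sample labels, whereas the paper's text places it later, and its methods describe separate transfections for each replicate. The labels give the siRNA target as KDM5A with LSD1, a synonym of KDM1A, beside it. KDM1A itself lay at 9.50, 9.57 and 9.49 on the control arrays and at 6.25, 6.34 and 6.31 on the siKDM1A arrays (limma adjusted p = 7.1e-07). None of 5 probe sets of KDM5A passed (limma adjusted p from 0.056 to 0.87). Values are log2 RMA values, a scale of normalized probe set intensity on which a difference of 1 is a 2-fold change. No detection call was made, so levels are placed against the quartiles of their own array. Of 14 neural and medulloblastoma markers 9 lay above the median of every array, SOX2, ZIC2 and TUBB3 among them, while OTX2, EOMES, SYP and STMN2 lay below it on every array. Above the median of every array there were also 7 of 10 mesenchymal, 5 of 6 epithelial and 1 of 5 glial markers. Of 5 leukocyte markers PTPRC, CD14 and LYZ lay below the median on every array, CD3E around it and ITGAM above it. The array of siKDM1A replicate c was lowest on control probe sets for 18S ribosomal RNA and spiked-in RNA, given with DICER1 below. On the spiked-in RNA siKDM1A replicate a was the highest. Array medians ran from 5.086 to 5.156. In bulk RNA, fewer cells with a transcript and less of it per cell cannot be told apart.

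In the microRNA pathway, a primary transcript is cut in the nucleus by the Microprocessor, which consists of the nuclease DROSHA and its RNA-binding partner DGCR8. Exportin 5, encoded by XPO5, carries the resulting hairpin to the cytoplasm, where DICER1, together with the double-stranded RNA-binding protein TARBP2, trims it to a duplex. An Argonaute protein keeps a strand of this duplex and forms the silencing complex RISC, and TNRC6A, a GW182 protein, links Argonaute to the enzymes that shorten and uncap the bound mRNA. A transfected siRNA enters the same pathway at the Argonaute step. Because the control cells received no siRNA, KDM1A loss and the presence of an siRNA that occupies RISC cannot be told apart in any difference below.

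After KDM1A knockdown few probe sets of the machinery differed, as was the case over all probe sets. Of the 31 probe sets, 2 were lower (AGO3 and AGO4) and 1 was higher (TNRC6A) at a limma adjusted p under 0.05, which is 9.68% against 5.91% of all probe sets in either direction, 3.73% lower and 2.18% higher. A count of 3 is close to what this background share gives. With 1 probe set per gene, the brightest, AGO4 was lower and none of the 9 genes was higher, against 5.46% and 3.45% of all genes. At an unadjusted p under 0.05, DICER1 was higher and AGO4 lower, 2 of 9 against 24.2% of all genes (9.75% higher, 14.4% lower), and the methods' own test, described with the processing, called none higher after adjustment. At the same unadjusted threshold 6 of the 31 probe sets passed, 3 higher and 3 lower, 19.4% against 18.8% of all (7.84% higher, 11.0% lower). The median log2 difference was 0.05 over the 31 probe sets and 0.01 over all probe sets. Of the 28 probe sets that did not pass, 23 had a 95% interval that stayed within 1.5-fold in either direction, so for these a larger average change is not in the interval. Over the 31 probe sets the arrays of the groups did not overlap for 8, 25.8%, against 24.5% of all probe sets. Of these 3 were higher and 5 lower, where 11.1% and 13.4% of all were. By brightest probe set, of the 9 genes only DICER1 (higher) and AGO4 and DROSHA (lower) were without overlap. The share over all genes was 31.6% (13.5% higher, 18.1% lower).

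**Figure D1:**
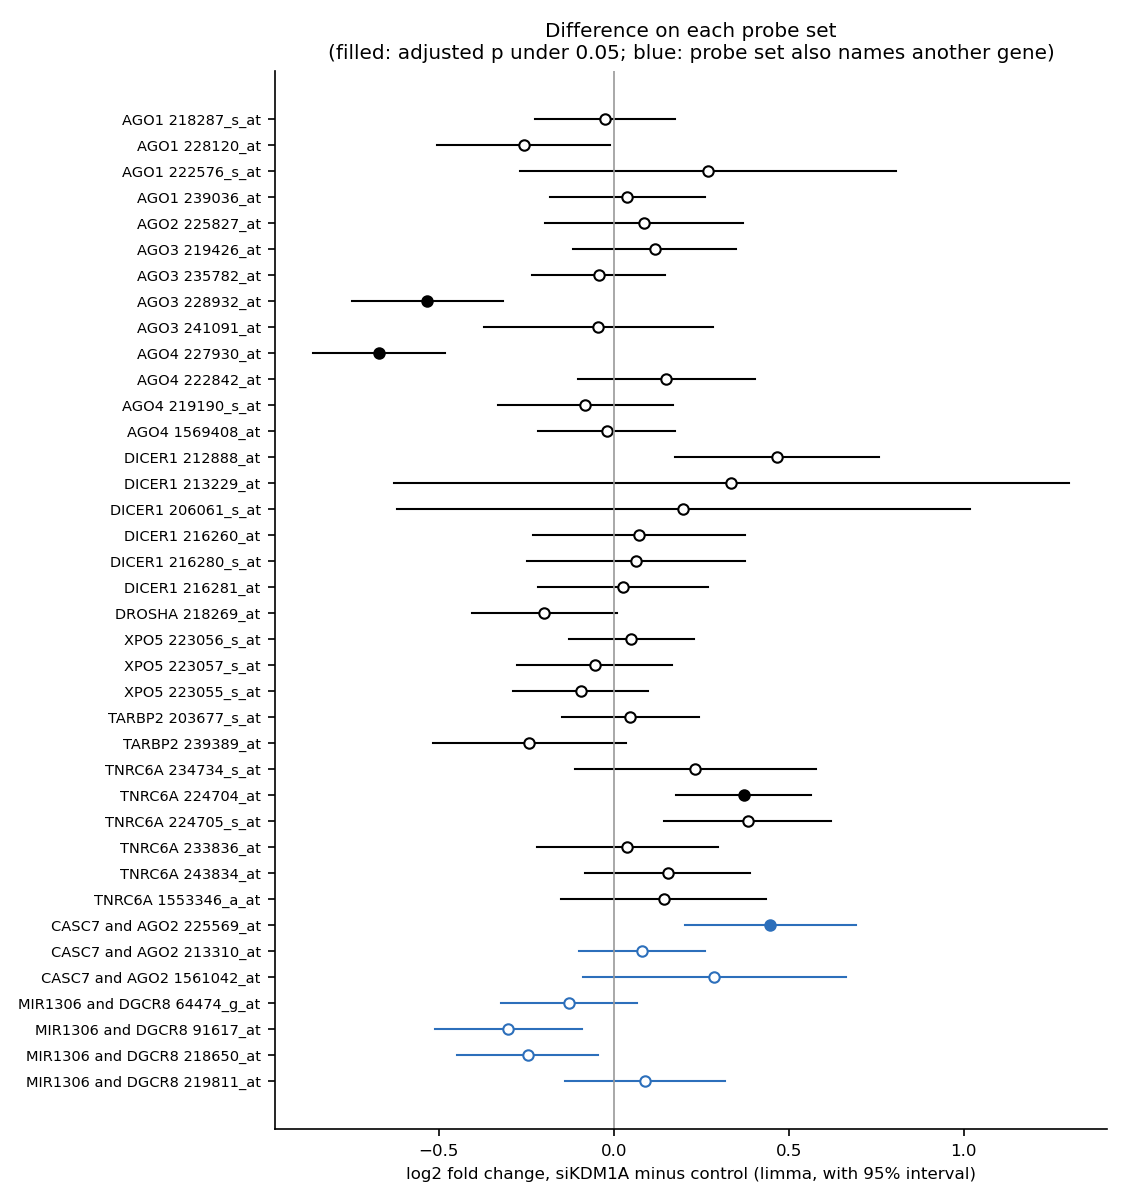
Change on the log2 scale, siKDM1A over control, for each probe set of the 10 genes with its 95% interval from limma; filled points have an adjusted p under 0.05 and blue marks probe sets that also name another gene. The filled black points are AGO3 228932_at and AGO4 227930_at to the left of 0 and TNRC6A 224704_at to the right.

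Of the 4 Argonaute genes, AGO4 changed most. AGO4 encodes a family member that loads small RNAs and is generally held to have little cleavage activity of its own. Its brightest probe set, 227930_at, had log2 values of 7.08, 6.98 and 7.11 in control and of 6.42, 6.41 and 6.33 in siKDM1A cells. Every siKDM1A array lay below every control array, and the gap was many times the spread within either group. The mean fell from 7.06 ± 0.06 to 6.39 ± 0.05 (SD, n = 3 each), which is 1.59-fold lower (log2 difference -0.67, standard error 0.08, limma adjusted p = 0.0023). It was also the only one of the 31 that passed the methods' own test after adjustment. The other 3 AGO4 probe sets did not pass, with log2 differences of 0.15, -0.08 and -0.02. All 3 lay below the median of every array, and 1569408_at, at 2.07 to 2.23, even below the lower quartile.

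AGO3, whose protein resembles AGO2 in its catalytic residues but acts as a slicer only in restricted settings, was lower on 1 of 4 probe sets. On 228932_at the control arrays read 5.35, 5.28 and 5.15 and the siKDM1A arrays 4.84, 4.63 and 4.71, again without overlap. This is 1.45-fold lower (log2 difference -0.53, standard error 0.10, limma adjusted p = 0.012), at a level close to the array median. The brightest AGO3 probe set, 219426_at, had a log2 difference of 0.12 (limma adjusted p = 0.61), so the probe sets of this gene did not move together. Values of 7.13, 7.34 and 7.35 in control and of 7.27, 7.52 and 7.37 in siKDM1A cells overlapped on it. The remaining pair had log2 differences of -0.04 each. Without control replicate a or control replicate b the fall on 228932_at had a limma adjusted p of 0.052 and 0.054.

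AGO1, the family member best known for work in microRNA repression, lies between AGO4 and AGO3 among the protein-coding genes of chromosome 1. Its brightest probe set, 218287_s_at, read 8.06, 8.09 and 7.99 in control and 7.92, 8.03 and 8.11 in siKDM1A cells, a log2 difference of -0.02 with a 95% interval of -0.22 to 0.17. On 228120_at the values were 7.77, 7.62 and 7.58 against 7.22, 7.42 and 7.57. The groups only just failed to overlap there, and the log2 difference of -0.26 did not pass (limma adjusted p = 0.24). On 222576_s_at siKDM1A replicate a stood alone at 6.13, while the other 5 arrays lay between 5.04 and 5.26. The fourth probe set, 239036_at, had a log2 difference of 0.04.

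AGO2, the main slicer of the family and the Argonaute that executes siRNA cleavage, has 1 probe set of its own. On 225827_at the control arrays lay close together at 8.44, 8.46 and 8.46, and the siKDM1A arrays at 8.73, 8.65 and 8.24 fell on both sides of them. The log2 difference was 0.09, with a 95% interval of -0.20 to 0.37 (limma adjusted p = 0.78). On 225569_at, which names AGO2 and CASC7, values of 8.89, 8.62 and 8.57 in control stood against 9.10, 9.26 and 9.06 in siKDM1A cells. This probe set was 1.36-fold higher (limma adjusted p = 0.044), a call that was lost without any array but control replicate a (limma adjusted p from 0.064 to 0.19 in those 5 cases). Another with the same annotation, 213310_at, had a log2 difference of 0.08, and the dim 1561042_at one of 0.29, neither of which passed (limma adjusted p = 0.65 and 0.41). Which of the 2 genes such a probe set reads cannot be told from the annotation.

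**Figure D2:**
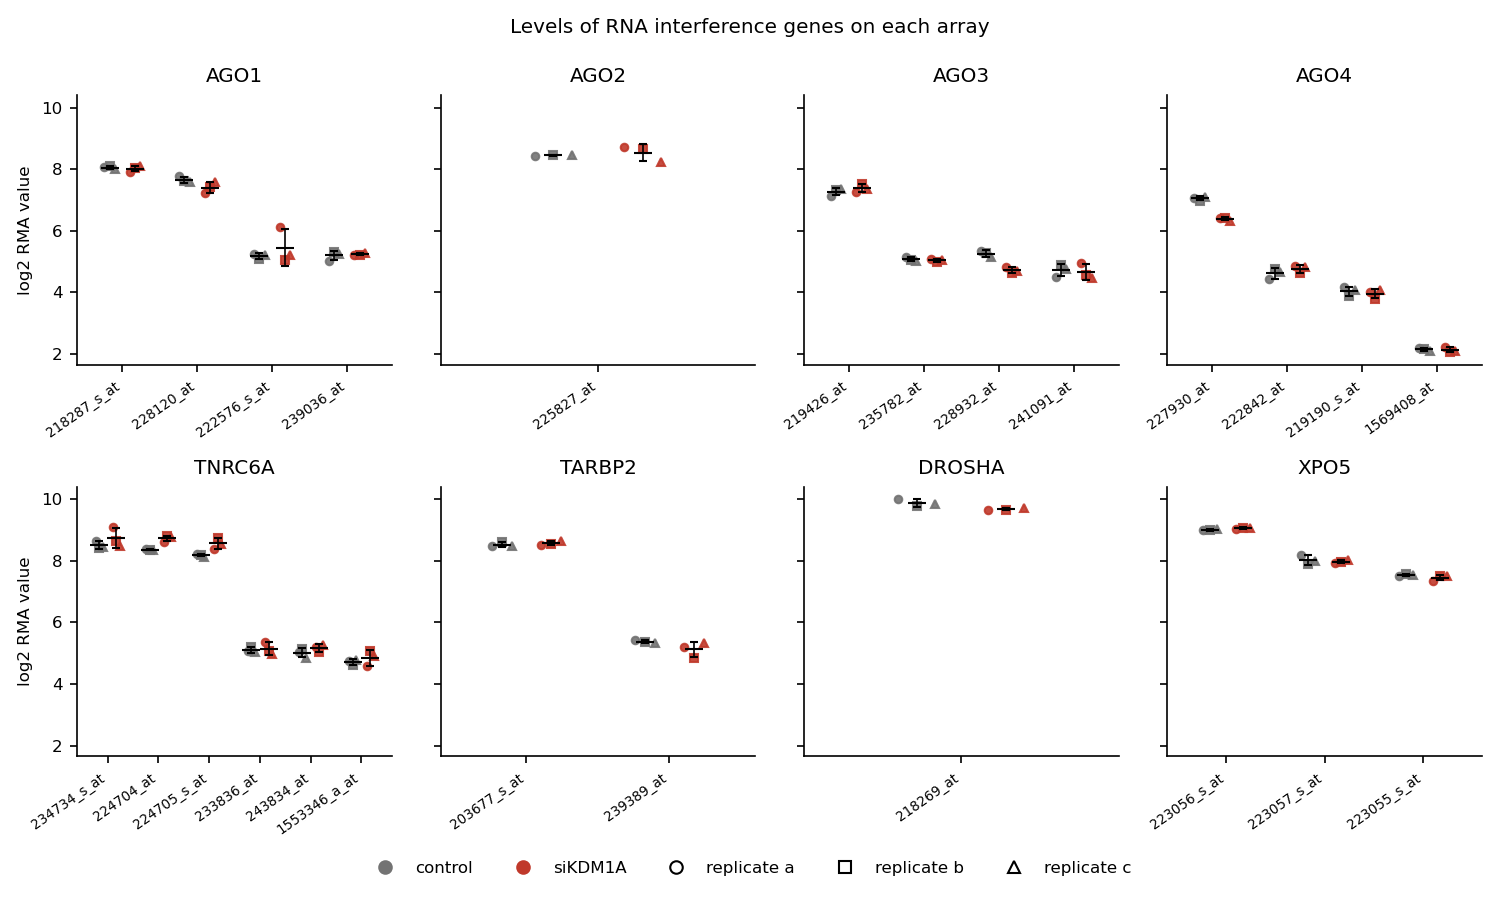
Log2 RMA values of every probe set of 8 member genes on the 3 control (grey) and 3 siKDM1A (red) arrays, with replicates as symbols and the mean and SD of each group in black. AGO4 227930_at and AGO3 228932_at separate the groups downward and TNRC6A 224704_at upward. DROSHA and XPO5 have small mean differences, and the siKDM1A arrays of AGO2 fall on both sides of its control arrays.

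Since AGO4 and AGO3 both held a lower probe set, the RefSeq promoter windows of these genes (GRCh38.p14, 250 bases before to 50 after the start) are shown, with each match to the GC box (GGGCGG, either strand) in capitals.
AGO4 (chr1:35807766-35808065, plus strand): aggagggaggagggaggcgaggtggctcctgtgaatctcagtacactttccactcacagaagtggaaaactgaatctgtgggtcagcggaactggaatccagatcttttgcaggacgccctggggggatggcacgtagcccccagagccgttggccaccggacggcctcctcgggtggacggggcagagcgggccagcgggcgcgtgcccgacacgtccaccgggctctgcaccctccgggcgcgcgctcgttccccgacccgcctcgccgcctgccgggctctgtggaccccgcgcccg
AGO3 (chr1:35930855-35931154, plus strand): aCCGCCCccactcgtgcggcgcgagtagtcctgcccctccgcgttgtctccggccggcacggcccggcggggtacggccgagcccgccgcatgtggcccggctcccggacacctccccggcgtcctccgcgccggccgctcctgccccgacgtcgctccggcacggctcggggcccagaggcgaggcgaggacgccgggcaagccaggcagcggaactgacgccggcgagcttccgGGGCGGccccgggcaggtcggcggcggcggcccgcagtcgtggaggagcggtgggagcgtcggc
The AGO3 window held 2 GC boxes and the AGO4 window none, while AGO1 held 2, and 45.0% of 35116 windows of this length held at least 1. None of these 3 windows held a TATA box (TATAAA, in 11.5% of windows), an E2F site (TTTCCCGC or TTTGGCGC, in 2.27%) or a site of GFI1, a repressor that recruits KDM1A (TAAATCAC, in 0.624%), on either strand. The 3 windows are rich in G and C, with 69.0% in AGO4, 80.0% in AGO3 and 72.3% in AGO1 against a median of 58.7% over all windows. A match is a description of these letters and no evidence of binding.

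As a description of the pattern of AGO4 227930_at over the 6 arrays, the genes with the highest Pearson correlation to it were MEIS2 (r = 0.9996), NUP85 (r = 0.9991) and HMMR (r = 0.9987). All 3 were lower in siKDM1A cells, and with 3 arrays in each of 2 groups any clear fall gives a high r. Over 0.95 there were 1063 of 41087 probe sets.

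TNRC6A was the only member with a higher probe set. On 224704_at the control arrays read 8.37, 8.34 and 8.36 and the siKDM1A arrays 8.62, 8.79 and 8.77, without overlap. The increase was 1.29-fold (log2 difference 0.37, standard error 0.09, limma adjusted p = 0.037). A second probe set, 224705_s_at, read 8.21, 8.18 and 8.14 against 8.38, 8.75 and 8.56. It showed a like difference of 0.38 that did not pass (limma adjusted p = 0.073). The brightest, 234734_s_at, had overlapping groups and a log2 difference of 0.23 (limma adjusted p = 0.47), which was 0.05 without siKDM1A replicate a and 0.36 without siKDM1A replicate c. The 3 dimmer ones had log2 differences from 0.04 to 0.15. On 233836_at, the lowest of these differences, the sign turned without siKDM1A replicate a (-0.08). The call on 224704_at was lost without each array other than siKDM1A replicate a (limma adjusted p from 0.084 to 0.14 in those 5 cases).

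Both paralogs of TNRC6A held a lower probe set. TNRC6B, a second GW182 gene, read 7.91, 7.64 and 7.51 in control and 7.03, 7.10 and 6.65 in siKDM1A cells on its brightest probe set, 1.70-fold lower (limma adjusted p = 0.015). None of its other 6 probe sets passed, and their log2 differences ran from -0.60 to -0.24. On all 7 siKDM1A replicate c, the array lowest on the 18S ribosomal RNA and spiked-in RNA controls, was the lowest siKDM1A array. Without it the difference on the brightest was -0.63 (limma adjusted p = 0.033) and those on the other 6 ran from -0.37 to -0.13, that on 238468_at going from -0.52 to -0.16 and that on 230779_at from -0.60 to -0.32. The part of this array's control values in the TNRC6B values was not tested. TNRC6C, the remaining GW182 gene, read 6.69, 6.26 and 6.41 against 5.65, 5.43 and 5.70 on its brightest probe set. This was 1.82-fold lower (limma adjusted p = 0.0047), while its other 6 probe sets lay between -0.18 and 0.18 and did not pass. The difference between the paralogs' changes was not tested. The TNRC6B call had a limma adjusted p of 0.052 without control replicate a, and neither gene passed the methods' own test.

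DICER1, which encodes the nuclease that produces microRNAs and siRNAs from their precursors, was read by 6 probe sets. The brightest, 212888_at, had values of 9.30, 9.11 and 8.89 in control and of 9.53, 9.76 and 9.41 in siKDM1A cells. The groups did not overlap, but the 1.38-fold difference did not pass (log2 difference 0.47, standard error 0.13, limma adjusted p = 0.073). It passed with an intensity trend and a robust prior (limma adjusted p = 0.036) and with array weights (limma adjusted p = 0.042), out of a range of 0.036 to 0.26 over the 12 limma alternatives.

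A pair of further DICER1 probe sets split the siKDM1A arrays. On 213229_at replicates a and b read 8.16 and 8.08, above the control arrays at 6.95, 7.23 and 7.27, whereas replicate c read 6.22, below them. On 206061_s_at replicates a and b read 6.47 and 6.53 and replicate c 4.89, around control values of 5.65, 5.85 and 5.79. Neither passed with all arrays (limma adjusted p = 0.74 and 0.83). Without siKDM1A replicate c their log2 values were 0.97 and 0.73 higher (limma adjusted p = 0.0048 and 0.0067), while 212888_at was 0.54 higher and did not pass (limma adjusted p = 0.068). Replicate c lay at least as far below replicates a and b on 39 of 54613 probe sets, 0.0714%. The same array was low on the 18S ribosomal RNA control probe sets, at 7.04 to 7.35, where siKDM1A replicates a and b read 10.39 to 12.04, control replicate a 8.97 to 9.80, and control replicates b and c 10.32 to 11.69. Its poly-A spike controls were also the lowest of the 6 arrays, and those of siKDM1A replicate a were the highest. The mean of the Dap spike was 5.26 in replicate c, 9.31 in siKDM1A replicate a and 7.09 to 7.79 on the remaining arrays. Replicate c was not low on every ribosomal RNA control, with 5.66 on the 28S probe set AFFX-M27830_3_at against 5.22 to 5.5 elsewhere. The part of these array differences in the DICER1 values was not tested. The 3 dim DICER1 probe sets lay below the median of every array and had log2 differences of 0.03 to 0.07.

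**Figure D3:**
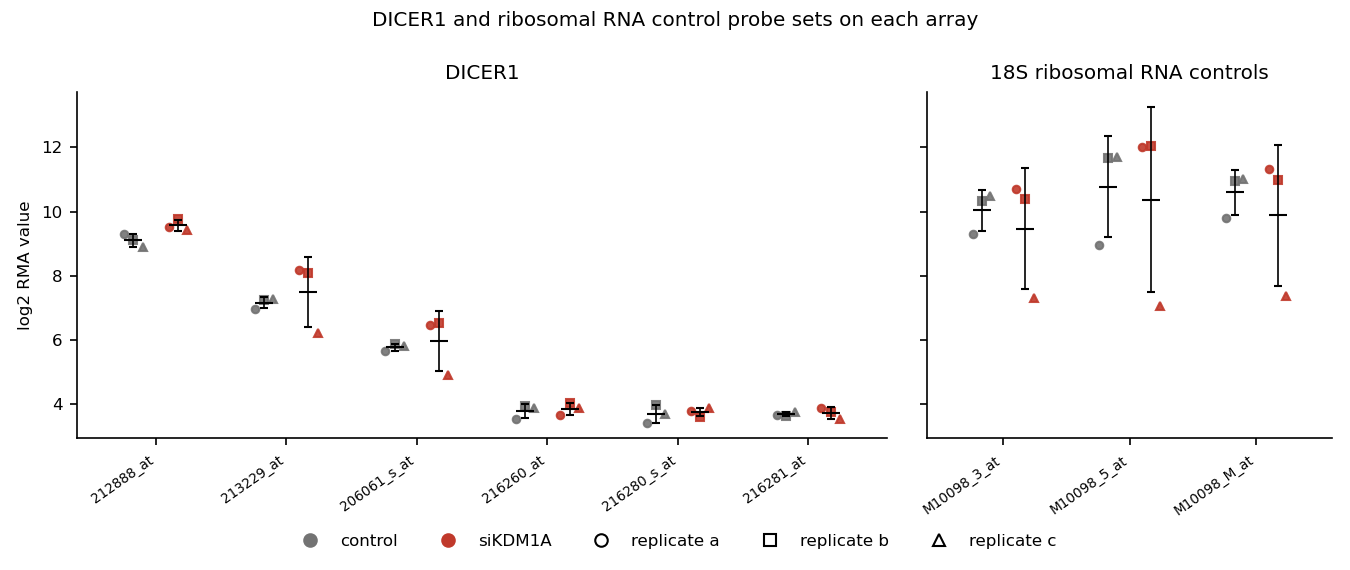
Log2 RMA values of the 6 DICER1 probe sets (left) and of 3 control probe sets for 18S ribosomal RNA (right) on the 3 control (grey) and 3 siKDM1A (red) arrays, with the mean and SD of each group in black. The triangle of siKDM1A replicate c lies at 6.22 and 4.89 on 213229_at and 206061_s_at, below its group, and at 7.04 to 7.35 on the ribosomal RNA controls.

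Nuclear processing and export genes showed small differences. DROSHA, the Microprocessor nuclease, read 10.01, 9.77 and 9.86 in control and 9.66, 9.65 and 9.73 in siKDM1A cells on its 1 probe set. Its groups did not overlap, yet the log2 difference of -0.20 did not pass (standard error 0.09, limma adjusted p = 0.29). The 4 probe sets that name DGCR8 and MIR1306 had log2 differences of -0.30, -0.25, -0.13 and 0.09, none of which passed. The lowest limma adjusted p among them was 0.11, for 91617_at, which read 7.68, 7.45 and 7.59 against 7.28, 7.34 and 7.19. XPO5, the export receptor, did not pass on any of 3 probe sets. Its brightest, 223056_s_at, read 9.0, 8.99 and 9.04 against 9.02, 9.08 and 9.08, a log2 difference of 0.05 with a 95% interval of -0.13 to 0.23. The other XPO5 probe sets had log2 differences of -0.05 and -0.09 (limma adjusted p = 0.83 and 0.62).

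TARBP2, the DICER1 partner, likewise did not pass on either probe set. On 203677_s_at it read 8.47, 8.61 and 8.48 in control and 8.51, 8.56 and 8.64 in siKDM1A cells, with a log2 difference of 0.05 and a 95% interval of -0.15 to 0.24. On 239389_at, near the array median, siKDM1A replicate b was lowest at 4.86, and the log2 difference of -0.24 came with overlapping groups (limma adjusted p = 0.34).

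Around these members, 107 further genes of the small RNA pathways were listed by step, and 95 of them had a probe set of their own. On the brightest probe set 3 rose and 8 fell, 11.6% against 8.92% of all genes, with a median log2 difference of -0.12 against 0.01 for all genes. By direction this is 3 of 95 beside 3.45% of all genes higher and 8 of 95 beside 5.46% lower. At an unadjusted p under 0.05, 6 were higher and 23 lower, against 9.75% and 14.4% of all genes. After adjustment the methods' own test called none of the 95. Most of the 95 lay above the median of every array, whereas the shares of all genes cover every level.

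The largest changes were those of a let-7 regulator and of a let-7 host transcript. LIN28B, an RNA-binding protein that blocks the maturation of let-7 microRNAs, read 7.94, 8.34 and 8.24 in control and 9.08, 9.34 and 9.24 in siKDM1A cells. It rose 2.07-fold (log2 difference 1.05, standard error 0.12, limma adjusted p = 0.0016). Its relative LIN28A was below every array's lower quartile. MIR100HG, the long noncoding host of a microRNA cluster, read 5.30, 5.25 and 4.96 against 6.22, 6.36 and 6.49 on its brighter probe set. It rose 2.27-fold (log2 difference 1.18, standard error 0.12, limma adjusted p = 0.00068), while its other probe set, with means of 2.19 and 2.18, did not pass. DLEU2, host of another cluster, fell by 0.44 on the log2 scale where brightest (limma adjusted p = 0.027) and by 0.74 on a dim one (limma adjusted p = 0.048), and its remaining 5 did not pass. The DLEU2 call on the brightest probe set was lost without each array other than siKDM1A replicate b (limma adjusted p from 0.066 to 0.11). None of the arrays measured mature microRNAs, so whether their levels followed is not shown.

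The 5p arms of 5 microRNAs that RefSeq (GRCh38.p14) places within these hosts are printed to show their seeds. The 3p arms, and MIR10526 in MIR100HG, are not shown. Capitals mark the seed, bases 2 to 8.
hsa-let-7a-5p (chr11:122146568-122146589, minus strand): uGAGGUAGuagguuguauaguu
hsa-miR-100-5p (chr11:122152275-122152296, minus strand): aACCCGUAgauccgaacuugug
hsa-miR-125b-5p (chr11:122099809-122099830, minus strand): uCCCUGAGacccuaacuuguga
hsa-miR-15a-5p (chr13:50049167-50049188, minus strand): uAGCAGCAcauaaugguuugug
hsa-miR-16-5p (chr13:50049027-50049048, minus strand): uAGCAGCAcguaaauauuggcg
The first 3 lie in MIR100HG and have different seeds, and the last 2 lie in DLEU2 and share theirs. LIN28 proteins are known to bind GGAG in let-7 precursors, and the let-7a hairpin inside MIR100HG holds it once, at position 42 of 72, here in capitals.
MIRLET7A2 (chr11:122146522-122146593, minus strand): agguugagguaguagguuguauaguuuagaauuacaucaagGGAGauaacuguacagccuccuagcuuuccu
These letters occur in 9 of 11 let-7 hairpins and in 43.4% of all 1562 hairpins of the table.

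**Figure D4:**
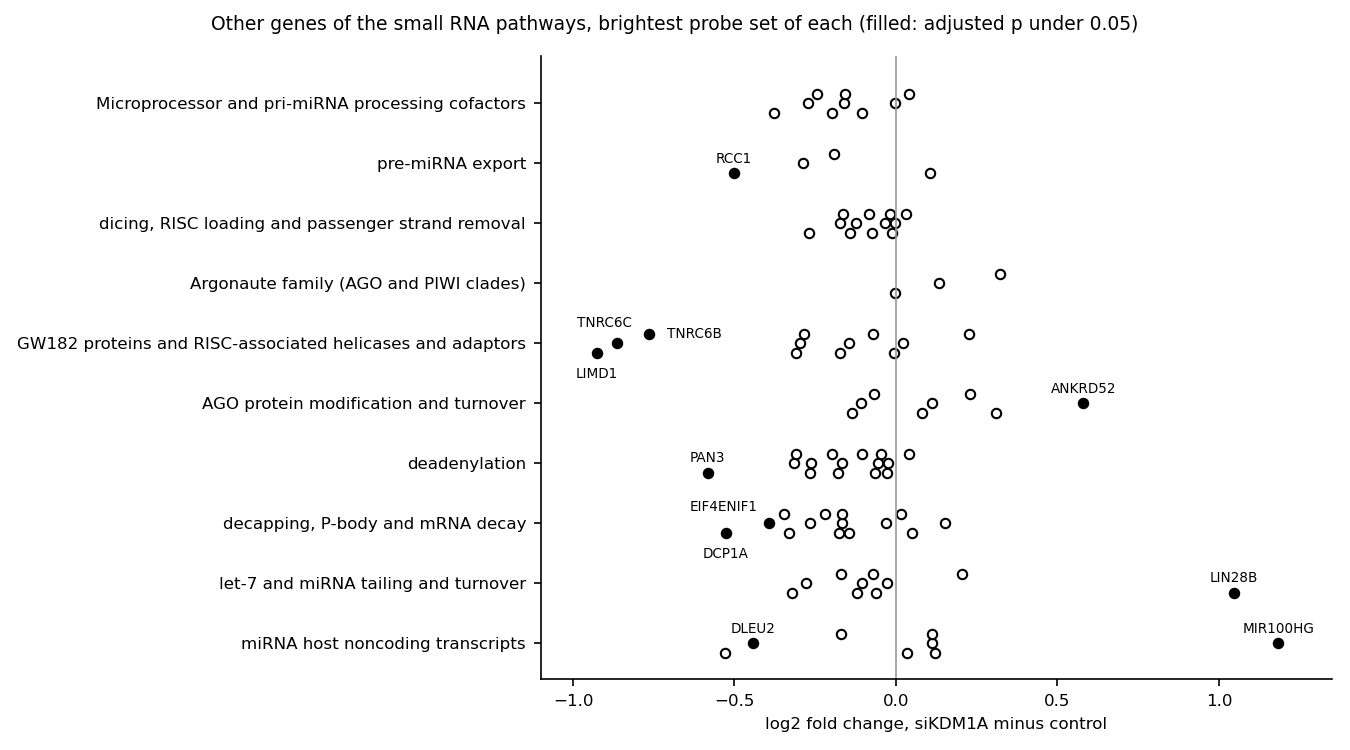
Change on the log2 scale, siKDM1A over control, for the 95 pathway genes outside the core machinery, by step and by brightest probe set, filled where the limma adjusted p was under 0.05. LIN28B and MIR100HG lie to the right beyond 1, and TNRC6B, TNRC6C and LIMD1 furthest to the left.

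Among 41 measured effectors downstream of Argonaute 6 fell on the brightest probe set, 14.6% beside 5.46% of all genes. The methods' own test called none of the 41. All of them lay above the median of every array, whereas the 5.46% covers genes of every level. The share among genes of like level was not worked out. These effectors join the GW182, deadenylation and decapping lists, a pool that was not among the planned counts. TNRC6A, a member with a higher probe set that was not its brightest, is left out of this pool. The difference from the other steps, where 2 of 54 fell, was not tested. Among 12 measured GW182 proteins, helicases and adaptors 3 fell, TNRC6B and TNRC6C with LIMD1, an adaptor that links Argonaute to the cap-binding machinery. LIMD1 read 8.29, 8.01 and 7.94 against 7.30, 7.20 and 6.96, 1.90-fold lower (limma adjusted p = 0.0032), and was lower on 2 of its 5 probe sets. Of 15 deadenylation genes 1 fell (6.67%), PAN3, a subunit of the deadenylase that TNRC6 proteins recruit, which was 1.5-fold lower (limma adjusted p = 0.0096). CNOT1 and CNOT3 of this list, and PUM2 of the adaptor list, were each lower on 1 of 3 probe sets. They did not pass on the brightest and are not counted as fallen. Of 14 decapping and P-body genes 2 fell (14.3%). These were DCP1A, a decapping activator (1.44-fold lower, limma adjusted p = 0.011), and EIF4ENIF1, which binds the cap-binding factor eIF4E (1.31-fold lower, limma adjusted p = 0.026). Both lost the call without control replicate c (limma adjusted p = 0.063 and 0.13), and EIF4ENIF1 also without siKDM1A replicate a or c or control replicate a or b (limma adjusted p from 0.058 to 0.075).

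On the brightest probe set, none of 9 Microprocessor cofactors and none of 12 dicing and RISC loading genes passed limma's test. PRKRA, of the second list, was lower on the dimmer of its 2 probe sets. At an unadjusted p under 0.05 the first list had 2 genes lower and the second 0, beside 14.4% of all genes. Neither list had a gene higher, beside 9.75% of all genes, and the methods' own test called 0 in each after adjustment. Of 4 genes of the Ran cycle that powers export 1 fell (beside 5.46% of all genes), RCC1, the nucleotide exchange factor of Ran (1.42-fold lower, limma adjusted p = 0.011, and lower on both its probe sets). Without control replicate c its adjusted p was 0.065. Of 8 genes that modify or degrade Argonaute proteins 1 rose (12.5% beside 3.45% of all genes), ANKRD52, a subunit of the phosphatase that dephosphorylates Argonaute, which was 1.49-fold higher (limma adjusted p = 0.017). Without control replicate b or c its adjusted p was 0.068 and 0.055. None of the 3 measured PIWI genes passed (0 by the methods' own test after adjustment). Before adjustment 1 of them was higher at a limma p under 0.05, beside 9.75% of all genes.

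**Figure D5:**
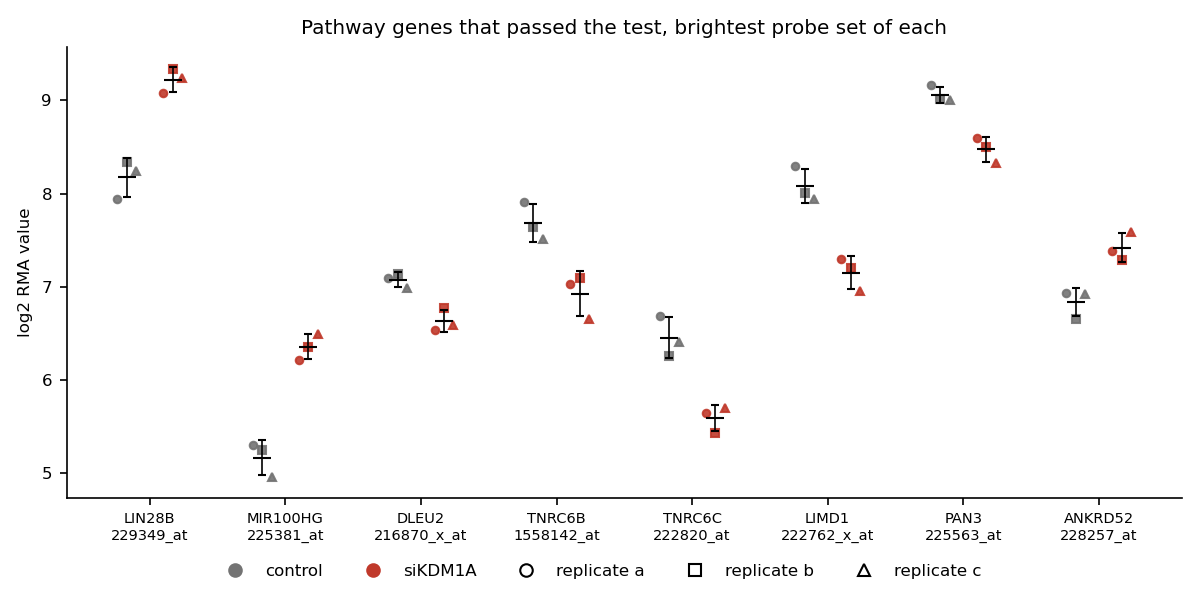
Log2 RMA values of 8 pathway genes that passed limma's test, on the 3 control (grey) and 3 siKDM1A (red) arrays, with replicates as symbols and the mean and SD of each group in black. LIN28B, MIR100HG and ANKRD52 lie higher on all 3 siKDM1A arrays than on any control array, and the other 5 lie lower.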

How the data were processed

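RNA of 6 samples was hybridized to Affymetrix U133 Plus 2.0 arrays. The authors ran RMA in the Partek Genomics Suite and deposited 1 log2 value per array for each of 54675 probe sets. The sources used here do not name its version. RMA gives all arrays 1 intensity distribution, so a change common to most genes is hard to see. With 62 Affymetrix controls left out, limma 3.58.1 in R 4.3.3 compared siKDM1A with control over 54613 probe sets. Tests were two-sided, p-values were adjusted by Benjamini-Hochberg over all probe sets, and the threshold was 0.05. By the platform annotation 41091 probe sets name 1 gene, 1801 several and 11721 none. Where a gene needed 1 probe set, the brightest on average was taken. Precision is limited by having 3 arrays in a group.

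Members and lists were chosen with earlier results of these data known. All members were to be named, and up to 4 genes that passed from each of 10 lists. The fit was tested on simulated data, where 15 of 50 changes of 1.5-fold and 41 of 50 of 2-fold passed. In this simulation changes of the smaller size were thus mostly missed. It planted only 50 changes of each size, whereas 3230 probe sets passed in the data. An adjusted threshold is stricter where fewer probe sets change, so these shares can be too low for the data. The methods' own test is a one-way ANOVA, run here on the same values. The paper's methods name no adjustment of its p-values, and the same Benjamini-Hochberg adjustment was added here. Further alternatives were 2 other scalings (median centring and cyclic loess), leaving out dim probe sets, a trend with robust prior, array weights, blocking on the replicate letter, leave-one-out, and other choices of probe set. Sequences came from RefSeq tables of GRCh38.p14, and probe sequences were not analysed here.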

Additional observations from a re-analysis of the deposited data

How the results depend on the processing

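Results kept their direction where they had been called, for all 15 called single results under every alternative run, but several calls did not hold. In the ANOVA the adjusted p was 0.032 for AGO4 227930_at, 0.093 for AGO3 228932_at and 0.088 for TNRC6A 224704_at, and 0.056 to 0.17 for the pathway genes that had passed. AGO4 227930_at passed in all 12 limma alternatives (limma adjusted p from 0.0013 to 0.019), as did LIN28B, MIR100HG, TNRC6C, LIMD1 and PAN3. Of the 31 probe sets of the members, 1 was higher and 2 lower. The higher count was 2 with cyclic loess, the filter on dim probe sets or array weights, 3 with the intensity trend and 0 with the ANOVA or the replicate block. The lower count was 1 with the filter, which leaves out AGO3 228932_at, and 1 with the ANOVA. Leaving out each array gave 0 to 2 higher and 1 to 2 lower. By the brightest probe set 0 of 9 member genes were higher and 1 lower. With the intensity trend, array weights or no _x_at and _s_at probe sets 1 was higher, with the smallest p per gene 1 higher and 2 lower, and with the mean of a gene's probe sets 0 lower. Of the pathway genes the ANOVA called 0 higher and 0 lower. Leaving out each array gave 4 (without control replicate c) to 8 lower, and 5 without control replicate a. Over all probe sets the ANOVA called 275 higher and 401 lower. Leaving out each array gave 609 to 1103 higher and 694 to 1563 lower, both lowest without control replicate c.

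The replicate letters a, b and c were shared between the groups. Deviations from the group means correlated at 0.11, 0.23 and -0.13 for the same letter, so the letters were not taken to pair the samples. With the replicate block 1080 probe sets were higher and 1639 lower, and TNRC6A 224704_at did not pass (limma adjusted p = 0.070). Only siKDM1A replicates a and b correlated best with the control of their own letter.

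Of 34 uncalled probe sets 13 changed sign under some alternative, and no value of the turned sign was over 0.0858 in size. Cyclic loess gave 0.0391 for AGO1 218287_s_at, 0.00947 for XPO5 223057_s_at and -0.00985 for DICER1 216281_at, and median centring -0.00178 for the last. Leaving out each array gave log2 differences of -0.0697 to 0.027 for AGO1 218287_s_at, -0.0666 to 0.477 for AGO1 222576_s_at, -0.0471 to 0.0935 for AGO1 239036_at, -0.00668 to 0.234 for AGO2 225827_at, -0.187 to 0.0552 for AGO3 241091_at, -0.16 to 0.00378 for AGO4 219190_s_at, -0.0696 to 0.0134 for AGO4 1569408_at, -0.0858 to 0.735 for DICER1 206061_s_at, -0.0516 to 0.171 for DICER1 216260_at, -0.0701 to 0.199 for DICER1 216280_s_at, -0.0615 to 0.125 for DICER1 216281_at, -0.117 to 0.0295 for XPO5 223057_s_at and -0.0755 to 0.119 for TNRC6A 233836_at. The cause of these shifts was not tested.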
